A study of Oncorhynchus mykiss with 8 samples.

Results

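The probes described here measure cyp1a, the Ah receptors and a few other microsomal oxygenase genes in the liver of small and large rainbow trout. A probe was included if its symbol in the array's annotation starts with cyp or ahr. It was also included if its name in the liver and muscle gene lists of the study contains cytochrome p450, aryl hydrocarbon receptor or flavin containing monooxygenase. This gave 10 of the 43603 probes on the array, and all 10 had a value on all 8 arrays. The symbol chose 7 of them, namely 2 probes for cyp1a (A_05_P248994 and A_05_P249154) and 1 each for ahr1, ahr2a, ahr2b, ahr2g and ahr2d. The listed name chose the other 3, which are flavin containing monooxygenase 5 (FMO5, A_05_P377187), cytochrome p450 2u1 (cyp2u1, A_05_P488342) and NADPH--cytochrome p450 reductase (P450 reductase, A_05_P358812). Since 42195 probes carry no gene name here, further cytochrome P450 probes may be among them.

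The fish were immature juveniles of the Lyndon strain, more than 1 year old and kept at 1 research station. The Sept lot and the Dec lot are named for the month of their crosses, and each lot descends from 1 male and 5 females, with a different male for each lot. The lots were sampled in different months, so that lot, parents and season cannot be told apart. Each pool holds liver mRNA of 5 fish, 1 from each mother's family. A pool of the largest fish was set against one of the second smallest, and a pool of the second largest against one of the smallest, which gives 2 pool pairs per lot. Males and females were not separated. Each pool pair was hybridized on 2 Agilent 44 K arrays made from Atlantic salmon sequences, once with the small fish in Alexa Fluor 647 and once in Alexa Fluor 555. Values are log2 ratios of small over large fish, so that a negative value means a lower signal in small fish, and this direction is likely rather than stated. The arrays carry 36754 to 41918 values each, and their medians lie between -0.03 and 0.11. The signals of the single channels were not analysed here, so there is no level for any gene, no limit from weak signal and no check of the tissue by the levels of liver genes.

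CYP1A is the cytochrome P450 of the liver that oxidizes planar aromatic compounds, and it is the best known target of the aryl hydrocarbon (Ah) receptor in fish. The receptor waits in the cytoplasm with the chaperone hsp90, moves to the nucleus when a ligand binds and there switches on cyp1a with its partner ARNT. Salmonids carry a larger set of Ah receptor genes than mammals, of the AHR1 and AHR2 types, and in fish the AHR2 forms are held to mediate most of the cyp1a response. Cytochrome P450 enzymes receive their electrons from NADPH through P450 reductase, while flavin containing monooxygenases oxidize nitrogen and sulphur compounds without it. Because salmonid genes are often present in near-identical copies, a probe can take up signal from more than 1 copy.

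In Dec, both cyp1a probes, FMO5 and ahr2b were lower in small fish, and the other 6 probes did not pass the thresholds. A probe passed if its unadjusted p was no higher than 0.05 and its fold change no smaller than 1.2, the limits named in the study's methods, applied here to a limma fit over pool pairs. Of the 10 probes 4 passed in Dec, all 4 lower in small fish. The study, with its own test at these limits, listed none of the 4 as higher in the liver of large Dec fish. Over all probes 4.84% passed in Dec in either direction, and 2.75% passed with the lower value in small fish. In Sept 0 of the 10 passed, against 2.72% of all probes. FMO5 and cyp2u1 were named from calls on these Sept arrays, so their part in the Sept count and median is a description. The Dec errors share their spread with the Sept pool pairs, so the FMO5 pass in this Dec fit is a description too. After Benjamini-Hochberg adjustment over all probes none of the 10 was significant in limma, with adjusted p-values of 0.990 to 0.999 in Dec and 1.00 in Sept. The 10 probes had a median log2 ratio of -0.12 in the Dec arrays, where all probes tested had 0.008, and of -0.055 in the Sept arrays, where all probes had 0.001. Without Dec pool pair 1, and likewise without Dec pool pair 2, 1 of the 10 probes passed, FMO5 both times. Over all probes 9.59% and 10.6% passed in these fits, so that 1 of 10 is about the background share. The spread then comes from the Sept pool pairs alone. FMO5 was named from calls on those same arrays, so no test is read from its pass. The cyp1a ratios stayed near their values with wider errors, at -1.06 and -1.03 (SE 0.42) for A_05_P249154 and at -1.11 and -0.79 (SE 0.51) for A_05_P248994. With each lot fitted alone, the spread in Dec uses no Sept value of the probe. The same 4 probes passed in that Dec fit, against 3.48% of all probes. The test that the study's methods name, run on the Dec values, did not pass FMO5.

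**Figure D1:**
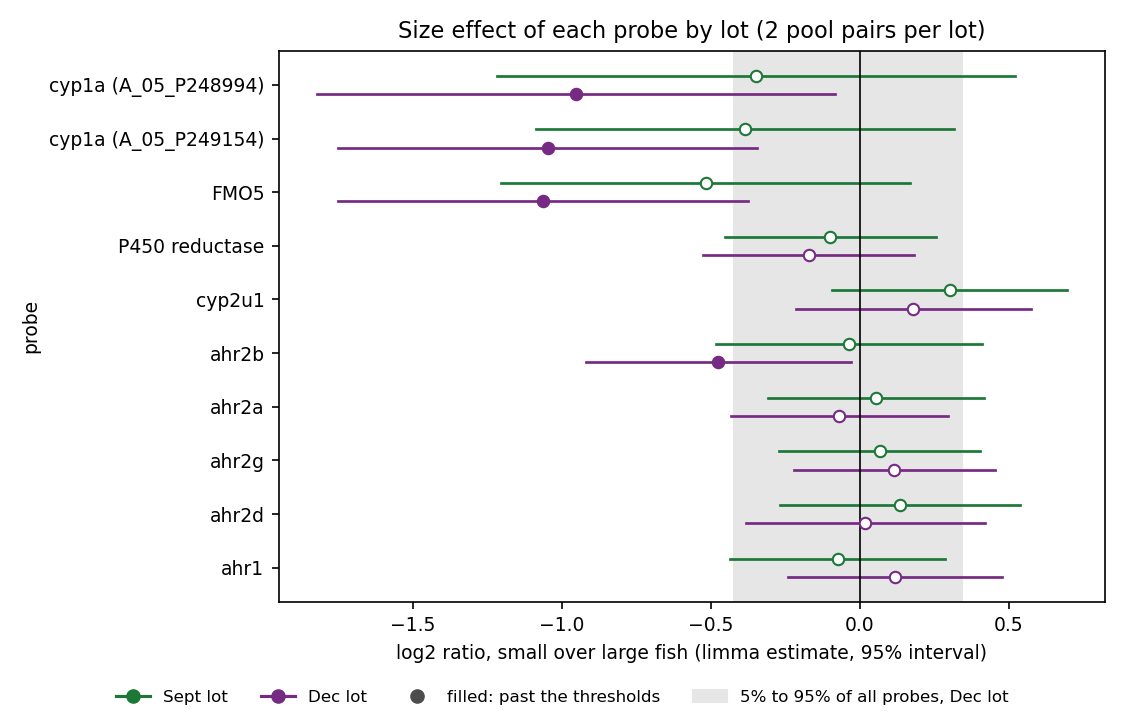
Log2 ratio of small over large fish for each of the 10 probes (points, limma estimate over 2 pool pairs per lot) with its 95% interval (lines), Sept in green and Dec in purple. Filled points passed the thresholds, which holds for both cyp1a probes, FMO5 and ahr2b in Dec, and the grey band spans -0.42 to 0.34, the 5% and 95% points of all Dec probes.

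The first cyp1a probe, A_05_P248994, had Dec log2 ratios of -1.66 and -1.65 with the small fish in Alexa Fluor 647, and of 0.076 and -0.58 in Alexa Fluor 555. So 3 of the 4 arrays were below 0, and the 4th lay just above it. The mean was -0.95 (SE 0.33, 95% interval -1.82 to -0.08, n = 2 pool pairs), a 1.94-fold lower signal in small fish, with an adjusted p of 0.990 in limma. Of 34014 probes tested in Dec, 0.591% had a lower ratio.

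The second cyp1a probe, A_05_P249154, was below 0 on all 4 Dec arrays, as 3.41% of all probes were. Its ratios were -1.74 and -1.13 with the small fish in Alexa Fluor 647, and -0.33 and -0.99 in Alexa Fluor 555. Both pool pairs came to the same value, with means of -1.03 and -1.06. The estimate was -1.05 (SE 0.27, 95% interval -1.75 to -0.35, n = 2), or 2.07-fold lower in small fish, with an adjusted p of 0.990 in limma and 0.420% of probes lower.

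In Sept the cyp1a ratio differed between the pool pairs. Probe A_05_P248994 read -1.80 and -0.18 on the 2 arrays of pool pair 1, but -0.23 and 0.82 on those of pool pair 2. Probe A_05_P249154 read -1.65 and -0.14 in pool pair 1, and -0.14 and 0.39 in pool pair 2. The pool pair means were thus -0.99 and 0.29 for the first probe and -0.90 and 0.13 for the second. Sept pool pair 1 lay at the level of the Dec pool pairs in both probes, and Sept pool pair 2 was the only one of the 4 above 0. The Sept estimates, -0.35 (SE 0.33, 95% interval -1.22 to 0.52) and -0.39 (SE 0.27, -1.09 to 0.32), did not pass the thresholds. Without Sept pool pair 2 the probes stood at -0.99 and -0.90, and without Sept pool pair 1 at 0.29 and 0.13. Each of these values rests on 1 Sept pool pair. The spread in such a fit comes from the Dec pool pairs alone, so no test is read from it.

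The Sept effect minus the Dec effect was 0.60 (SE 0.47, 95% interval -0.63 to 1.83) for A_05_P248994 and 0.66 (SE 0.38, -0.33 to 1.65) for A_05_P249154. A difference between the lots was therefore not shown for cyp1a, and the intervals include both no difference and a Dec effect more than 1 log2 unit stronger. Without Sept pool pair 1 the differences were 1.25 and 1.17. Sept then has 1 pool pair and no spread of its own, so no test is read from these values. Of all 10 probes 0 passed for the difference, against 2.75% of all probes, and the adjusted p was 1.00 for each in limma. FMO5 and cyp2u1, named from calls on the Sept arrays, are in this count as a description.

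Both cyp1a probes gave nearly the same picture on each array. They had the same sign on 7 of 8 arrays and differed by 0.044 to 0.523 log2 units, with a median of 0.272. The exception was the Dec array of pool pair 1 with the small fish in Alexa Fluor 555, at 0.076 and -0.33. The sequences of the probes were not used here, so whether they read the same or different copies of the gene was not determined. Averaged on each array and counted once, cyp1a had a Dec ratio of -1.0 (SE 0.30) and a Sept ratio of -0.37 (SE 0.30), and 3 of the then 9 entries passed in Dec.

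**Figure D2:**
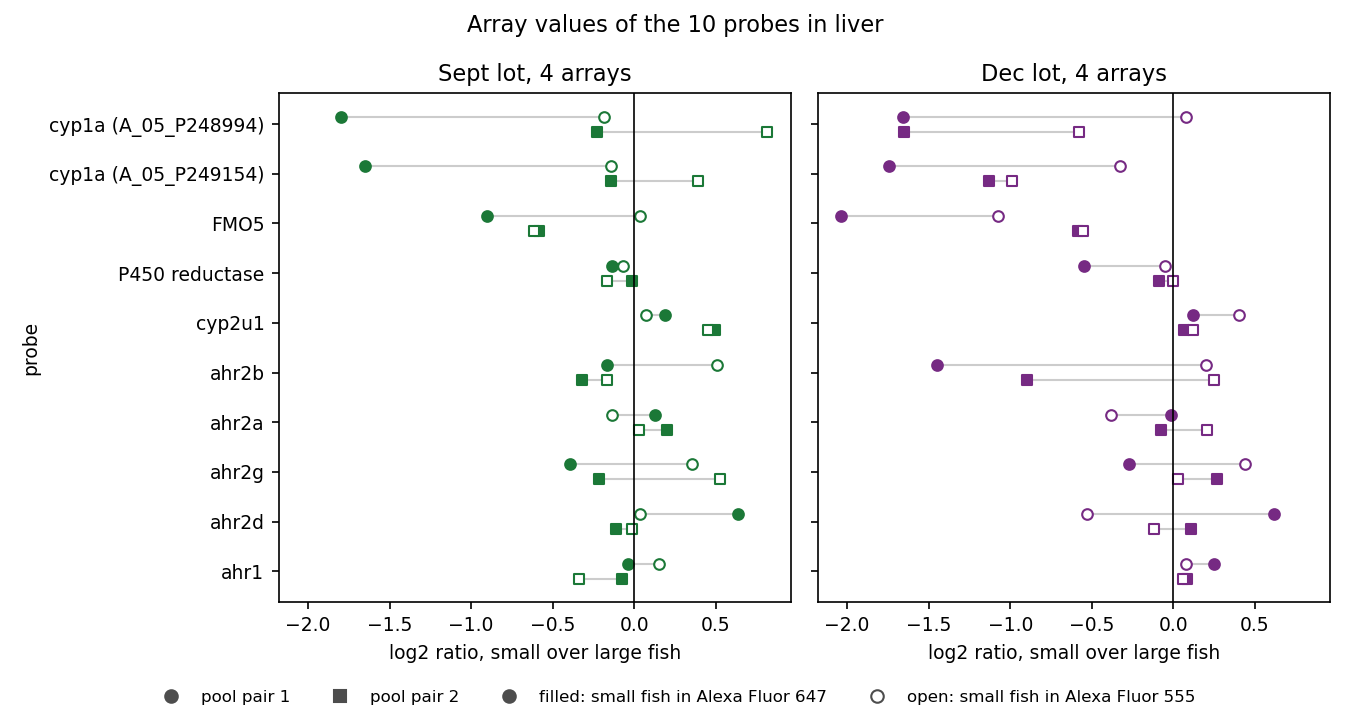
Log2 ratio of small over large fish on every array for the 10 probes, Sept on the left and Dec on the right, with circles for pool pair 1, squares for pool pair 2 and a line between the 2 arrays of a dye flip. Filled points have the small fish in Alexa Fluor 647 and open points in Alexa Fluor 555. The cyp1a and FMO5 points reach to the far left, down to -1.80 for cyp1a in Sept and -2.04 for FMO5 in Dec. The cyp2u1 points lie right of 0 on all 4 Dec arrays, as for 4.64% of all probes. They also do so on the Sept arrays, whose calls gave this probe its name.

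The cyp1a values differed strongly between the arrays of a dye flip. When small fish carried Alexa Fluor 647, the ratio of A_05_P248994 was lower in all 4 pool pairs than when they carried Alexa Fluor 555. The difference, 647 minus 555, was -1.61 and -1.04 in the Sept pool pairs and -1.73 and -1.08 in those of Dec. Over the 4 pool pairs it was -1.37 (SE 0.36, adjusted p = 0.0801 in limma), and 1.90% of 33291 probes had a larger one in either direction. For A_05_P249154 it was -0.90 (SE 0.35, adjusted p = 0.174), with 8.31% larger. The single differences of A_05_P249154 were uneven, at -1.51 and -0.53 in the Sept pool pairs and -1.42 and -0.14 in those of Dec. The mean of a pool pair holds both orientations and takes up none of such a difference if the dye acts alike on both arrays. Whether it does was not tested. Over all probes, arrays of a dye flip correlated at -0.131 and 0.057 in Sept and at -0.144 and 0.0036 in Dec, although both arrays carry the same fish. Of 12 pairs of arrays with the same orientation the median correlation was 0.134 (0.052 to 0.358), and of 16 pairs with opposite orientations -0.137.

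On the 2 Dec arrays that had small fish in Alexa Fluor 647, taken alone, 4 of the 10 probes passed, against 12.1% of all probes. They were the same 4, at -1.66 and -1.44 for the cyp1a probes, -1.31 for FMO5 and -1.17 for ahr2b. On the 2 with the dyes exchanged 1 of the 10 passed, FMO5 at -0.82 (SE 0.25), which is the background share, since 9.52% of all probes passed there. The cyp1a probes then had -0.25 (SE 0.32) and -0.66 (SE 0.26), and ahr2b changed side, at 0.23 (SE 0.23). Both fits share their spread with the Sept arrays, so the FMO5 passes in them are a description.

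**Figure D3:**
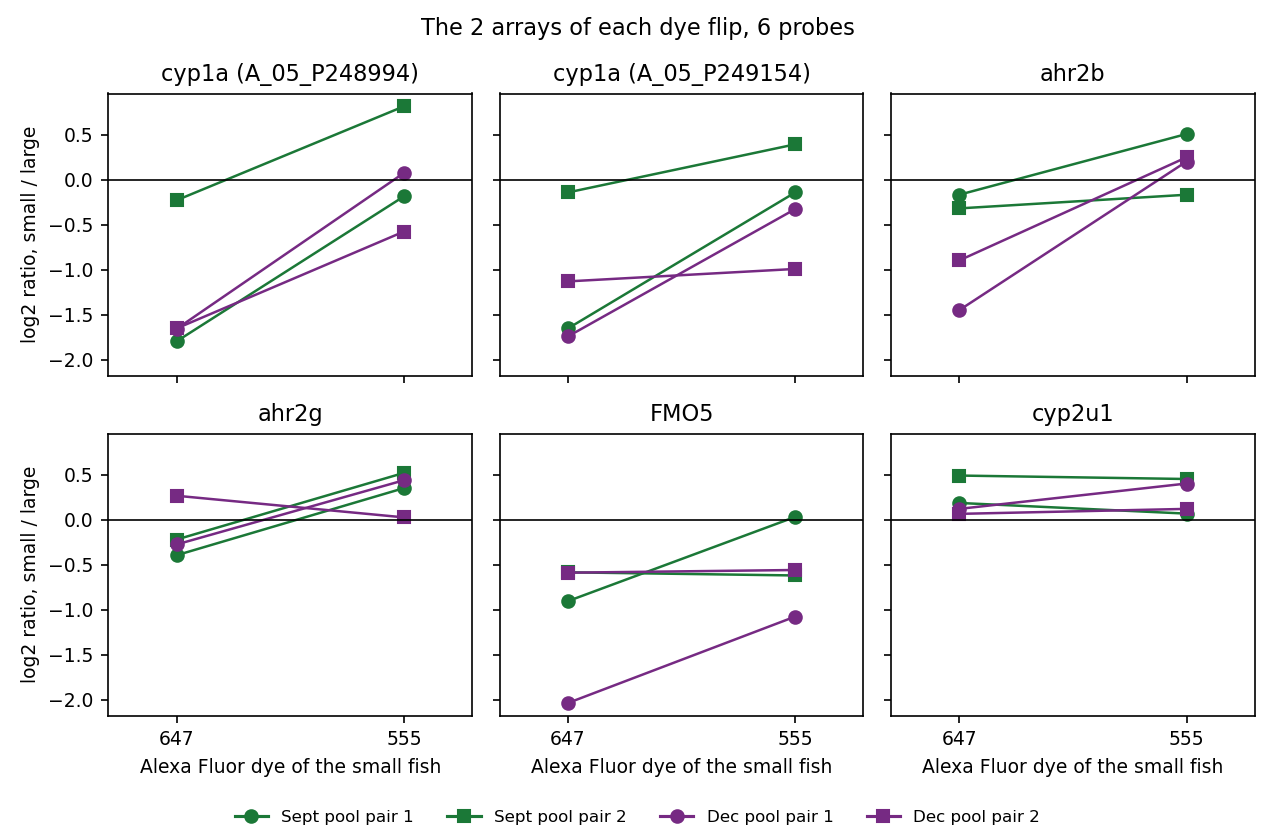
Log2 ratio of small over large fish on the 2 arrays of each dye flip (horizontal axis, the dye of the small fish) for 6 of the probes, Sept in green and Dec in purple, circles for pool pair 1 and squares for pool pair 2. For both cyp1a probes and for ahr2b all 4 lines run upward from 647 to 555, with mean differences of -1.37, -0.90 and -0.91 (647 minus 555). The lines of cyp2u1 run both ways, with a mean difference of -0.045.

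FMO5 had a Dec estimate near that of cyp1a. Their order depends on the direction of the ratios, which is likely but not stated. With the sign of the Alexa Fluor 555 arrays turned, the Dec values were -0.70 (SE 0.15) for cyp1a A_05_P248994, -0.70 (SE 0.14) for ahr2b, -0.39 (SE 0.21) for cyp1a A_05_P249154 and -0.25 (SE 0.19) for FMO5. The first 2 of these passed, and in that fit 6809 of 34014 probes passed. In mammals FMO5 is a liver form of the family that oxidizes carbonyl compounds rather than the usual nitrogen and sulphur compounds. The study marked this name as differing from the one Agilent gives for the probe, and the protein it reads is thus less certain than for the probes chosen by symbol. The Dec ratios were -2.04 and -1.07 in pool pair 1 and -0.59 and -0.56 in pool pair 2, all 4 below 0. Pool pair 1 was lower than pool pair 2 on both arrays, and the pool pairs do not overlap. The Dec estimate was -1.06 (SE 0.26, 95% interval -1.75 to -0.38, n = 2), or 2.09-fold lower in small fish, with an adjusted p of 0.990 in limma and 0.385% of probes lower. This SE draws on the Sept pool pairs too, so the interval and the pass are a description. The estimate was -0.57 without pool pair 1 and -1.55 without pool pair 2. The spread in these fits comes from the Sept pool pairs alone. FMO5 was named from calls on those arrays, so no test is read from these fits.

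In Sept the FMO5 ratios were -0.90 and 0.034 in pool pair 1 and -0.58 and -0.62 in pool pair 2, with a mean of -0.52 (SE 0.26). The name of this probe comes from a list of probes called in these Sept arrays, so its Sept value is given as a description and no test is read from it. Small Sept fish were below large fish on 3 of 4 arrays, and the array above 0 is nearly at 0. The Sept effect minus the Dec effect, which uses the same Sept value and is likewise a description, was 0.55, and it was 1.04 without Dec pool pair 2 and 0.055 without Dec pool pair 1.

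FMO5 and cyp1a had similar estimates in both lots, but their pool pairs were ordered differently. In Dec the lower pool pair was number 1 for FMO5 and number 2 for cyp1a A_05_P248994, and in Sept the pool pair with cyp1a above 0 had the lower FMO5 value, -0.60 against -0.43. The root mean square difference between FMO5 and the cyp1a probes over the 4 pool pair ratios was 0.705 and 0.559, against 0.157 between the cyp1a probes themselves.

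Of the receptors, ahr2b alone passed in Dec, and only its Alexa Fluor 647 arrays put it below 0. ahr2b, ahr2a, ahr2g and ahr2d are 4 receptors of the AHR2 type in Atlantic salmon. The Dec ratios of ahr2b were -1.45 and -0.90 with the small fish in Alexa Fluor 647, and 0.20 and 0.25 in Alexa Fluor 555, so the 2 orientations do not overlap and lie on opposite sides of 0. The estimate was -0.47 (SE 0.17, 95% interval -0.92 to -0.03, n = 2), or 1.39-fold lower in small fish, with an adjusted p of 0.990 in limma and 3.91% of probes lower. The ahr2b ratio was -0.32 without Dec pool pair 1 and -0.62 without pool pair 2. Each value rests on 1 Dec pool pair, with the spread of the Sept pool pairs, so no test is read from it.

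In Sept ahr2b read -0.17 and 0.51 in pool pair 1 and -0.32 and -0.17 in pool pair 2, on both sides of 0, with a mean of -0.036 (SE 0.17). Its difference between the lots was 0.44 (SE 0.24, 95% interval -0.19 to 1.07), which passed only when arrays with small fish in Alexa Fluor 647 were taken alone, at 0.93 (SE 0.30), as 3.21% of all probes did. Like cyp1a, ahr2b was lower in all 4 pool pairs when the small fish carried Alexa Fluor 647, with a mean difference of -0.91 (SE 0.27, adjusted p = 0.0995 in limma).

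The other 4 receptor probes had small ratios in both lots. Their estimates ran from -0.07 to 0.14 in Sept and from -0.07 to 0.12 in Dec, within the 5% and 95% points of all probes. ahr1, the AHR1 type receptor, was above 0 on all 4 Dec arrays, as 4.64% of all probes were, at 0.062 to 0.25, with an estimate of 0.12 (SE 0.14), and on 1 of 4 Sept arrays, at -0.34 to 0.15. ahr2a had -0.13, 0.13, 0.030 and 0.20 in Sept and -0.38, -0.016, -0.077 and 0.20 in Dec, on both sides of 0 each time. ahr2g was below 0 with the small fish in Alexa Fluor 647 and above 0 with the dyes exchanged in 3 of 4 pool pairs, and it was estimated at 0.067 (SE 0.13) for the Sept lot and 0.12 (SE 0.13) for the Dec lot. ahr2d was the most scattered of the 4, from -0.53 to 0.62 within Dec, both ends in pool pair 1, and was estimated at 0.019 (SE 0.15) in Dec and 0.14 (SE 0.15) in Sept.

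cyp2u1 was above 0 on all 4 Dec arrays, like ahr1 and 4.64% of all probes. CYP2U1 hydroxylates long-chain fatty acids in mammals. The Sept arrays gave 0.19, 0.070, 0.49 and 0.46, and the Dec arrays 0.12, 0.40, 0.068 and 0.12. The Dec estimate was 0.18 (SE 0.15, 95% interval -0.21 to 0.57) and did not pass the thresholds. The Sept mean was 0.30 (SE 0.15) and is a description, since this name too comes from a list of probes called in these Sept arrays. The mean dye difference of this probe, 647 minus 555, was -0.045 (SE 0.17). Its single differences ran both ways, at 0.12 and 0.038 in the Sept pool pairs and -0.28 and -0.055 in those of Dec.

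P450 reductase, the electron donor of the microsomal P450 enzymes, was at or below 0 on all 8 arrays. The share of all probes at or below 0 on all 8 was not counted, so no direction is read from this. The Sept ratios were -0.14, -0.071, -0.012 and -0.17. The Dec ratios were -0.55, -0.048, -0.086 and 0.0, so that 1 array stood apart and 3 lay within 0.1 of 0. The estimates, -0.10 (SE 0.13) and -0.17 (SE 0.13, 95% interval -0.52 to 0.18), did not pass the thresholds. The lower end of the Dec interval lies below the ahr2b estimate of -0.47 and above the cyp1a estimates of -0.95 and -1.05. The cyp1a intervals, -1.82 to -0.08 and -1.75 to -0.35, overlap that of P450 reductase, and a difference between these genes was not tested.

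The plot of the Dec ratios under each way of processing sets these calls side by side. Of 15 alternatives FMO5 passed in 12, cyp1a A_05_P249154 in 11, cyp1a A_05_P248994 in 10 and ahr2b in 9. The fits with each lot alone and without Sept pool pair 1 or 2 are the same Dec fit, counted more than once. All 4 probes passed in it. For FMO5 these include the fits without a Dec pool pair, whose spread comes from the Sept arrays it was named from. The test that the study's methods name, run over the 4 Dec arrays and likewise over the 2 pool pairs, left 1 of the 10 probes, cyp1a A_05_P249154, against 2.08% and 1.47% of all probes.

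**Figure D4:**
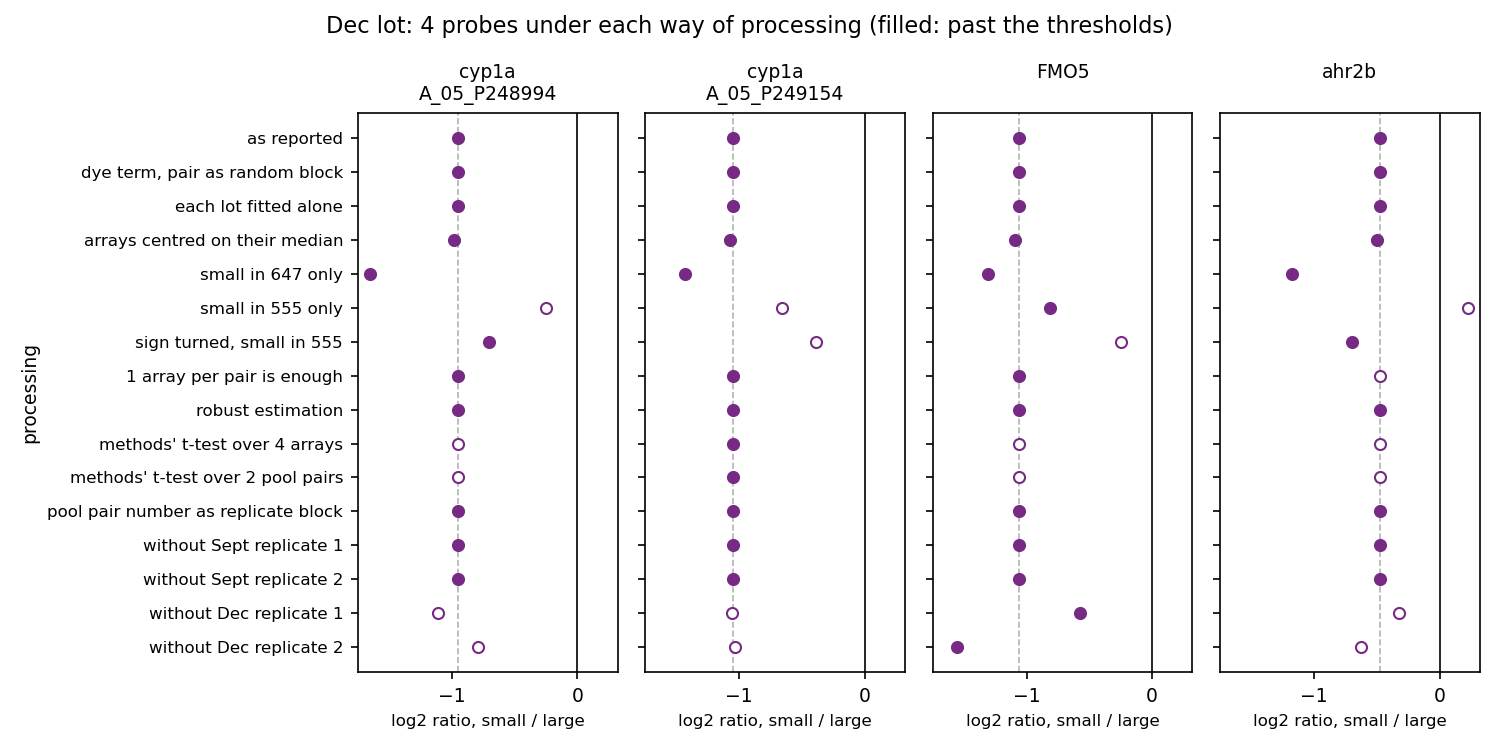
Dec log2 ratio of small over large fish (horizontal axis) for both cyp1a probes, FMO5 and ahr2b under each way of processing (vertical axis); filled points passed the thresholds, and the dashed line marks the value as reported. Most points lie on or near that line. The arrays of 1 dye orientation lie farthest from it for cyp1a A_05_P248994 and ahr2b. For cyp1a A_05_P249154 and FMO5 the point with the turned sign lies farthest, at -0.39 and -0.25. The only point right of 0 is ahr2b with the small fish in Alexa Fluor 555, at 0.23.

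Genes that work with these enzymes were looked up by name in 7 lists of 24 probes. Of these, 8 have their name from the liver lists of the study, which hold only called probes, and their counts are no independent evidence. In Sept 2 of 24 passed higher in small fish and 1 lower, and in Dec 2 of 22 tested passed higher and 0 lower. Of the 16 named elsewhere, some of them in the study's muscle lists of called probes, 0 passed in either lot. Protoporphyrinogen oxidase, among these 16, was not tested in Dec. Over all probes 2.72% passed in Sept and 4.84% in Dec, and these shares apply to the counts of the single lists below as well. At such shares 0 passes among so few probes is close to the background. The median of the tested probes was 0.117 in Sept and 0.006 in Dec.

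The chaperone hsp90, which holds the Ah receptor in the cytoplasm, had 5 probes, and 0 of 5 passed in either lot. Their log2 ratios lay between -0.155 and 0.303 in Sept and between -0.181 and 0.223 in Dec. Among the names used here none was for ARNT. Of 3 probes for heme synthesis, which supplies the heme of every P450 enzyme, 1 passed in Sept. It is a 5-aminolevulinate probe (A_05_P275069), named as the mitochondrial precursor, at -0.54 (SE 0.14). It was not tested in Dec, where pool pair 1 stood at 0.55 and pool pair 2 had no mean. The red blood cell probes described below had medians of -0.42 in Sept and 0.707 in Dec, and a link was not tested. Heme oxygenase, which breaks heme down with electrons from P450 reductase, had 3 probes and was at 0.12 to 0.68 in Sept and at -0.04 to 0.21 in Dec, and none passed.

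Of the conjugating enzymes, 1 of 3 glutathione S-transferase probes passed in Sept, a glutathione s-transferase p probe (A_05_P278137) at 2.24 (SE 0.48), and 0 of 3 in Dec. Of 6 nuclear receptor probes, nuclear receptor subfamily 0 group b member 2, a repressor of bile acid synthesis in mammals, passed in Sept at 0.43 (SE 0.14). Peroxisome proliferator-activated receptor gamma, a regulator of fat storage, passed in Dec at 0.73 (SE 0.19). Squalene monooxygenase, a flavoprotein of cholesterol synthesis that also draws on P450 reductase, had 2 probes, and 1 of them passed in Dec at 0.95 (SE 0.24). The metal-binding protein metallothionein had 1 probe, at 0.037 (SE 0.33) in the Sept lot and -0.75 (SE 0.33) in the Dec lot, and did not pass.

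The 5 named probes most like each cyp1a probe were found by the root mean square difference over the 4 pool pair ratios, among 1319 named probes with values on all arrays. For A_05_P248994 these were cathepsin m precursor (0.353), metallothionein (0.355), glutaryl-coenzyme a dehydrogenase (0.375), a probe of an unnamed protein (A_05_P269860, 0.390) and sun domain-containing protein 1 (0.431). For A_05_P249154 they were that same unnamed protein (0.367), glutaryl-coenzyme a dehydrogenase (0.391), probe A_05_P251959 of warm temperature acclimation-related 65 kda protein (0.413), polycystic kidney disease protein 1-like 3 (0.423) and cystathionine beta-synthase (0.423). None of them came as close as the cyp1a probes to each other, at 0.157. Metallothionein and cathepsin m precursor shared with A_05_P248994 a Sept pool pair 1 below 0 (-0.50 and -0.52) and a Sept pool pair 2 above it (0.57 and 0.73). With 4 pool pairs this likeness is a description.

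Markers of other cells were looked up by name in the same way, and many take their name from the liver lists of called probes. Some take it from the muscle lists, which also hold called probes. The shares of all probes that passed, 2.72% in Sept and 4.84% in Dec, apply to these counts too. Of 13 red blood cell probes 6 were lower in small fish in Sept (median -0.42, range -0.62 to 0.025) and 10 higher in Dec (median 0.707, range 0.092 to 1.11), where cyp1a was lower. Of the 4 not named from the liver lists, 1 passed in Sept and 2 in Dec, with medians of -0.202 and 0.3. Of 18 probes for plasma proteins made by hepatocytes 4 were lower in small Dec fish and none higher, with a median of -0.309 and a range of -1.09 to 0.042, while 0 passed in Sept (median -0.186). All 4 that passed are among the 16 named elsewhere. Among them, both warm temperature acclimation probes and complement component c9 are listed by the study as higher in white muscle of large Sept fish. Their names are thus not free of selection either. In Dec pool pairs 1 and 2 the warm temperature acclimation-related protein A_05_P251959 was at -0.89 and -1.30, beside -1.03 and -1.06 for cyp1a A_05_P249154. The part of these cells in the cyp1a, FMO5 and ahr2b values was not tested, and in whole liver fewer cells of a type and less RNA per cell cannot be told apart. Of 28 probes found by names of muscle proteins 26 were tested in Sept and 27 in Dec. In Sept 2 were higher and 1 lower, and in Dec 1 was higher and 1 lower, all of them named from the liver lists. These names do not all mark muscle cells, since a non muscle myosin-2 heavy chain is among them. Of the 2 higher in Sept, 1 is a smooth muscle myosin light chain. Of 4 leukocyte probes 1, also named from those lists, was higher in Dec, at 0.99 (SE 0.16), and of 2 egg envelope probes 1 was lower in each lot, a different one each time, at -0.88 (SE 0.19) for Sept (named from the liver lists) and -0.72 (SE 0.20) for Dec.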

How the data were processed

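The authors scanned the arrays on a GenePix 4200A, quantified them with GenePix Pro 6.1, excluded spots by manual review and points below a channel ratio of 0.1, and applied lowess in GeneSpring GX 7.3.1. The deposited values are log2 ratios and were used without centring, 60 control spots left out. All were read as small over large fish. Of 726 entries in the size-class gene lists for liver, the mean of the 4 deposited ratios lay on the listed side for 726. It was within 0.02 log2 of the listed size for 725. With the sign of arrays with small fish in Alexa Fluor 555 turned, these counts were 327 and 0. The study made the lists from these same arrays. The match thus shows how its authors read the ratios and is no separate check of the direction.

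Both arrays of each dye flip were averaged. The 4 pool pairs were fitted over all probes with a mean per lot and a shared spread in limma 3.58.1 (lmFit, eBayes; R 4.3.3); tables and figures used Python 3.11.15. A lot was tested on probes with values on all 4 of its arrays (38679 in Sept, 34014 in Dec), the difference between lots on 33291. The lots share no pools, and pool pair numbers mark no common source (correlation of same-numbered deviations 0.0319). The members and lists were chosen with earlier results of these data known. All members are named, together with listed genes that passed and up to 4 others per list. The code was tested on simulated data. There were 17 alternatives planned and 1 added after the data were seen, the cyp1a probes averaged. The limma p-values rest on the spread between the 2 pool pairs of a lot, shared by both lots and moderated over all probes. The number of pools limits precision. Names of 221 probes come from the platform annotation (104 are placeholders), others from the study's lists, and 1408 probes have a name. Promoters and probe sequences were not used here.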

Additional observations from a re-analysis of the deposited data

Results flagged for a closer look

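In 3 of 20 groups of 4 arrays (10 probes in 2 lots), 1 array stood far from the other 3, by a test that flags about 1 in 20 groups by chance. All 3 are Dec arrays of pool pair 1. For ahr1 the array with the small fish in Alexa Fluor 647 was at a log2 ratio of 0.2485 of small over large fish, the other 3 at 0.0621 to 0.0841. For P450 reductase the same array was at -0.55 and the other 3 at -0.0862 to 0.0. For cyp2u1 the array with the small fish in Alexa Fluor 555 was at 0.4049 and the other 3 at 0.0676 to 0.123. None of these probes passed the thresholds in Dec.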

How the results depend on the processing

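The Dec fits with each lot alone and without Sept pool pair 1 or 2 are the same fit and are counted more than once here. Of 60 recomputed values of the 4 Dec calls, 42 passed the thresholds and 1 changed sign, ahr2b on arrays with small fish in Alexa Fluor 555 alone, at 0.2263. The Dec count of 4 fell to 1 on those arrays, to 2 with their sign turned, and to 1 with the methods' t-test over 4 arrays or over 2 pool pairs; leaving out 1 pool pair gave 1 to 4. The Sept count of 0 became 1 with arrays as values, a dye term and pool pairs as a random block (cyp2u1, higher), 1 with each lot fitted alone (FMO5, like cyp2u1 chosen on Sept values) and 1 with the sign turned (cyp1a A_05_P248994); leaving out 1 pool pair gave 0 to 2. The count for the difference was 1 with small fish in Alexa Fluor 647 alone and 0 to 2 without 1 pool pair. With the pool pair number as a replicate block the counts stayed at 0 in Sept, 4 in Dec and 0 for the difference. The cause of these changes was not tested. A pool pair left alone in its lot was taken to vary as the other lot's pairs do, and the difference has no value with each lot fitted alone. Of 26 values not called 20 changed sign under at least 1 alternative, so their directions are not settled. Over all probes, 1054 in Sept and 1647 in Dec passed the thresholds and 0 an adjusted p of 0.05 in limma. One dye orientation moved the Dec count to 4370 (Alexa Fluor 647) or 3363 (555), the turned sign to 6809, the t-test to 709 over 4 arrays and 499 over 2 pool pairs, and leaving out Dec pool pair 1 or 2 to 3192 or 3539. For Sept, 1 dye orientation gave 1853 (647) or 2109 (555), the turned sign 3664, the t-test 648 or 442, each lot alone or a Dec pool pair left out 1611, and leaving out Sept pool pair 2 gave 548. The difference count of 917 became 2374 and 2677 without Dec pool pair 1 or 2 and 580 without Sept pool pair 2. A fold of at least 1.5 left 569 in Sept and 684 in Dec. No signal strength was analysed here, so no limit from dim spots can be given.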
